A study of Mus musculus with 8 samples.

Results

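The genes described here are 50 mouse genes of the cell cycle and of DNA replication, a list given by symbol and matched to the deposited Ensembl gene identifiers. All 50 were found among the 41388 identifiers of each library, and all 50 were among the 12002 genes that passed the filter on low counts and were tested. By role they fall into 22 replication genes, which license origins, copy DNA, supply nucleotides or drive entry into S phase, and 28 mitosis genes, which drive and check chromosome segregation and cell division. RNA sequencing measured them in microglia, the macrophages that reside in brain and spinal cord, isolated ex vivo from adult C57BL/6 mice by CD11c, CD11b and CD45. The disease was neuromyelitis optica (NMO), an autoimmune inflammation of optic nerve and spinal cord. The 3 groups were CD11c+ microglia of NMO mice (2 libraries), CD11c- microglia of NMO mice (3 libraries) and microglia of control mice (3 libraries). The population label of the control libraries is CD11C negative, but the word total stands in their titles, which also name the mice as unmanipulated, so the labels do not settle whether CD11c+ cells had been removed from them. The sources used here do not give how NMO was produced or whether animals were pooled.

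A dividing cell copies its DNA in S phase and separates the copies in mitosis. The MCM helicase is loaded on origins before S phase and many genes of this step are switched on by E2F factors, whereas genes of mitosis are held off in resting cells by the DREAM complex, which binds a short element called the cell cycle homology region, and are switched on later with the help of NF-Y, which binds CCAAT boxes. Adult microglia renew themselves slowly, with few cells in division at any time, and are known to proliferate during inflammation of the nervous system.

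The libraries held between 4943207 and 9246061 counts. The labels do not say that libraries came from separate mice, so the p-values cover the spread between these libraries alone, and that spread may be technical. The library numbers in the titles are 7 and 8 for NMO CD11c+, 10 to 12 for NMO CD11c- and 21 to 23 for control, no batch or date is given, and a difference in handling between NMO and control libraries cannot be told apart from the disease. Levels are in CPM, the count of a gene scaled to the depth of its library. The microglia markers Cx3cr1 and P2ry12 were detected in all 8 libraries, at 4543 to 7810 CPM and 1950 to 4910 CPM. Of the microglia markers Cx3cr1, P2ry12 and Siglech fell in NMO CD11c+ against control (log2 fold changes -0.71, -1.01 and -0.69, adjusted p = 0.012, 0.0086 and 0.031). In NMO CD11c- against control the same genes were at -0.41, -0.50 and -0.25 and did not pass the test, and the part of this in the results was not tested. There were 2 libraries that stood apart. In NMO CD11c+ replicate 1 the level rose with the GC content of the gene (Spearman rho 0.592 across genes, which are not independent), against -0.299 to -0.0378 in the other libraries. In NMO CD11c- replicate 2 the summed neutrophil markers and the monocyte marker Chil3 were the highest of all libraries. The 9 neutrophil markers, all tested, summed to 605 to 1237 CPM in controls, 1528 to 7263 in NMO CD11c- and 11.4 to 15.3 in NMO CD11c+. The 5 tested of 6 markers of neutrophil precursors summed to 263, 326 and 548 CPM in controls, to 833, 3546 and 546 in NMO CD11c- replicates 1, 2 and 3, and to 4.49 and 5.46 in NMO CD11c+, where Elane and Ctsg had 0 counts. The monocyte marker Chil3 was at 57.2 to 121 CPM in controls, at 197, 866 and 114 CPM in NMO CD11c- replicates 1, 2 and 3, and at 0.61 and 0.70 CPM in NMO CD11c+. Of other monocyte markers, Fn1 rose in NMO CD11c- and in NMO CD11c+ against control (log2 fold changes 3.07 and 2.43), and Plac8 rose in NMO CD11c- (2.01). Over the list of 8 monocyte markers, the median log2 fold change in NMO CD11c- against control was 1.99, with 8 positive. In NMO CD11c+ against control it was 0.20, with 5 positive and 3 negative, so the fall of Chil3 there does not stand for the list. Markers of T cells (1 of 6 tested) stayed at or under 2.26 CPM and those of erythroid cells (1 of 4 tested) at or under 4.94 CPM. Of 4 markers of oligodendrocyte precursors only Cspg4 was tested, at 4.90 to 4.93 CPM in NMO CD11c+ and at most 1.47 CPM elsewhere, while Pdgfra, Sox10 and Olig2 had 0 counts in NMO CD11c+.

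To show what the members carry in common at the DNA level, the 250 bases before the first listed RefSeq transcript start (GRCm38.p6) were searched on both strands for 3 motifs. They were the cell cycle homology region (TTTGAA or TTCGAA), the CCAAT box (CCAAT) and the E2F site (TTTGGCGC, TTTCCCGC, TTTGCCGC, TTTCGCGC). A window was at hand for 41 of the 50 genes, 18 of replication and 23 of mitosis. No window was used for Aurkb, Ccna2, Ccne2, Gins2, Kif20a, Mcm4, Pole, Stmn1 and Tpx2. The RefSeq start can lie downstream of the start of the gene in the GENCODE M21 annotation. For E2f1, Mcm7, Cdc6, Dut, Cdca3 and Cdca8 the whole window lies inside the annotated gene, and for some others a part of it does. These windows are counted with the rest, so for those genes the letters before the GENCODE start were not searched in full. The CCAAT letters occurred in 87% of mitosis windows (20 of 23), in 61.1% of replication windows (11 of 18) and in 34.5% of the windows of all 27025 genes in the table. Cell cycle homology letters occurred in 34.8% of mitosis windows (8 of 23), 11.1% of replication windows (2 of 18) and 17.4% of all windows. E2F letters showed the opposite split, with 27.8% of replication windows (5 of 18: Mcm5, Mcm6, Mcm7, Cdc6 and Pola1), 4.35% of mitosis windows (1 of 23, Cdk1) and 1.91% of all. A match is a run of letters and not a measured binding site. Some words overlap: the 2 E2F words of Mcm5 share 4 letters, as do 2 of the 3 in Mcm6.

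The windows of 3 mitosis genes and 2 replication genes are shown as examples. The first 3 genes rose in NMO CD11c- microglia and hold cell cycle homology letters, and the other 2 hold E2F letters. Cdca3, Cenpa, Cenpe and Cenpf also rose there, and their windows hold CCAAT letters but no cell cycle homology letters. E2f1 rose as well and its window holds none of the searched letters, while Tpx2, which also rose, had no window. The windows of E2f1 and Cdca3 lie inside the annotated genes, so the letters before their GENCODE starts were not searched in full. Capitals mark the searched motifs, as read on the gene's strand, so that a CCAAT box on the other strand reads ATTGG. The windows are chr10:69352913-69353162 for Cdk1, chr9:70421555-70421804 for Ccnb2, chr7:135716380-135716629 for Mki67 and chr1:128359706-128359955 for Mcm6, all on the minus strand, and chr8:75109259-75109508 for Mcm5, on the plus strand.
Cdk1: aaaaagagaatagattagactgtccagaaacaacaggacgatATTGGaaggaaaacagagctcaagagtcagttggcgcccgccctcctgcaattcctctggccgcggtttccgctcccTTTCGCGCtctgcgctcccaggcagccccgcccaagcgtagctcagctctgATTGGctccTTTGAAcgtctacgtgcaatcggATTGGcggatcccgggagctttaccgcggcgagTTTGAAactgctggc
Ccnb2: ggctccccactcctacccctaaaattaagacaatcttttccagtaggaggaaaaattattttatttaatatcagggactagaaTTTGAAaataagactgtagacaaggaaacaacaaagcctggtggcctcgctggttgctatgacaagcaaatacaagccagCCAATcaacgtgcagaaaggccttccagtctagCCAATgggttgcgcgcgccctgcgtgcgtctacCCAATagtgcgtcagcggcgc
Mki67: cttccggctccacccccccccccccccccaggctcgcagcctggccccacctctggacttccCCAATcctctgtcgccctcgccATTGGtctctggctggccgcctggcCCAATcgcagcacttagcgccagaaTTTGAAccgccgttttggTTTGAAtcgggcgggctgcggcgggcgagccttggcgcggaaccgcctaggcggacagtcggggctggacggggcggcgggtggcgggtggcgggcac
Mcm5: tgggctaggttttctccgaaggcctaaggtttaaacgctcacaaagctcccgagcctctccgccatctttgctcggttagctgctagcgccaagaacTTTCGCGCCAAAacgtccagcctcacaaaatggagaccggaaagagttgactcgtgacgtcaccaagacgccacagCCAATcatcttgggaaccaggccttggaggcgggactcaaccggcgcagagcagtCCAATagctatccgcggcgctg
Mcm6: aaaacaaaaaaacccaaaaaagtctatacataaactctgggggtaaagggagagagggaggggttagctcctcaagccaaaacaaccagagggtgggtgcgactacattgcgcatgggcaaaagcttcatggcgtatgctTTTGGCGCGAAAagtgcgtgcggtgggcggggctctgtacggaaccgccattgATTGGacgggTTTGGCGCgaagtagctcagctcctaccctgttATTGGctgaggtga

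In the window of Cdk1, the entry kinase of mitosis, TTTGAA starts 71 and 15 bases before the transcript start. CCAAT boxes start 208, 80 and 48 bases before it. The window of Ccnb2, which encodes a partner cyclin of that kinase, holds CCAAT boxes starting 87, 54 and 21 bases before the start. Its TTTGAA starts 167 bases before the start. A pair of CCAAT boxes whose first letters are 31 to 34 bases apart, a spacing chosen after the positions had been seen, occurred in 7 of 23 mitosis windows (30.4%; Aurka, Ccnb1, Ccnb2, Cdca3, Cdca8, Cdk1 and Ube2c), in 0 of 18 replication windows and in 1.17% of all windows. The plot of motif positions shows where the letters sit in each of the 41 windows.

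**Figure D1:**
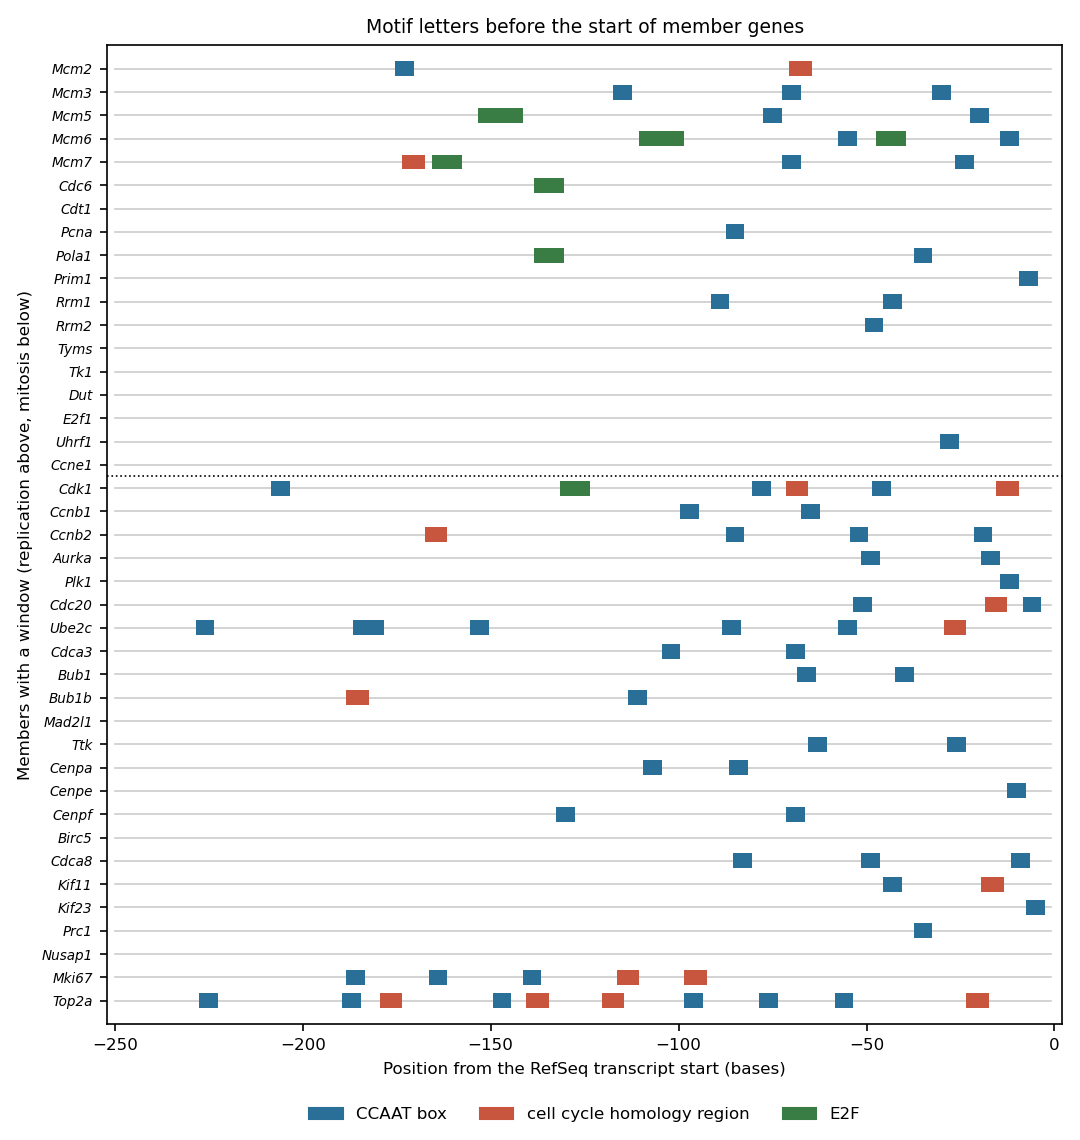
Positions of the searched motif letters in the 250 bases before the RefSeq transcript start of the 41 genes with a window. The horizontal axis is the distance from the start in bases, each row is a gene (replication above the dotted line, mitosis below) and each coloured box is a match. CCAAT boxes are in 20 of 23 mitosis rows, and E2F letters are in 5 of 18 replication rows and 1 mitosis row.

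In control microglia the replication genes were the more abundant. Per kilobase of exon, Pcna, the sliding clamp that holds polymerases on DNA, had the highest level of the 50 genes (27.4 CPM per kb), followed by the helicase subunits Mcm3 (15.3), Mcm4 (4.29), Mcm6 (4.26), Mcm7 (3.79) and Mcm5 (3.47). Mki67, a coat protein of mitotic chromosomes used as a proliferation marker, ranked 11 of 50 at 1.68 CPM per kb. Cdk1 ranked 30 at 0.573 CPM per kb, and the lowest were Cdc6 (0.103), which loads the helicase, and Ccnb1 (0.118), the main mitotic cyclin. Unscaled by length, mean control levels were 65.6 ± 9.11 CPM for Pcna, 57.2 ± 3.72 for Mcm3 and 2.83 ± 0.202 for Cdk1 (SD, n = 3). Counts of the low genes were small, with 1 to 8 counts of Cdc6 and 1 to 7 of Ccnb1 in a control library.

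Summed over the 28 mitosis genes, the level was 88.1, 80.4 and 96.4 CPM in controls, 183, 388 and 147 CPM in NMO CD11c- replicates 1 to 3 and 146 and 133 CPM in NMO CD11c+. Every NMO library lay above every control, and NMO CD11c- replicate 2 stood far above the rest. Summed over the 22 replication genes, the level was 300, 283 and 275 CPM in controls and 262, 443 and 290 CPM in NMO CD11c-. It was 285 and 344 CPM in NMO CD11c+, so the groups overlapped. The overlap rests on Pcna, at 65.6 ± 9.11 CPM in controls, 47.3 ± 16.8 in NMO CD11c- and 66.8 ± 52.3 in NMO CD11c+ (mean and SD). With Pcna taken out of the sums, a choice made after its values were seen, every NMO library would lie above every control, some by a small margin. In bulk RNA, more cells in division and more RNA of these genes per cell cannot be told apart. In NMO CD11c- the mitosis sum, the neutrophil and precursor marker sums and Chil3 were all highest in replicate 2, and the part of those cells in the result was not tested. In NMO CD11c+ the neutrophil and precursor sums were at or under 15.3 CPM, below every control. The mitosis sum of this group was above every control, and the part of other cells in it was not tested either.

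**Figure D2:**
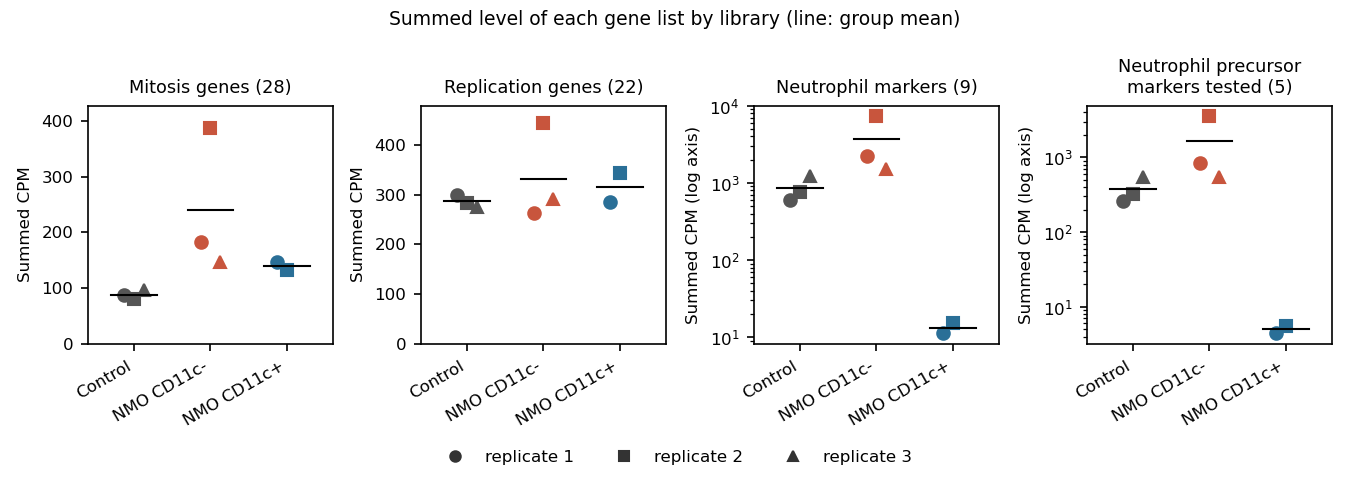
Summed level in CPM of 28 mitosis genes, 22 replication genes, 9 neutrophil markers and 5 tested neutrophil precursor markers in each library (points; the line is the group mean; both marker panels have a log axis). All NMO libraries lie above the 80.4 to 96.4 CPM of controls for mitosis genes. Replication sums, which include the scattered gene Pcna, overlap. Neutrophil and precursor markers are highest in NMO CD11c- replicate 2 and lowest in both NMO CD11c+ libraries.

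NMO CD11c- replicate 2 set much of the pattern. It held the highest level of the 8 libraries for 43 of the 50 genes (86%), 27 of 28 mitosis genes and 16 of 22 replication genes, beside 14% of all tested genes. Within its own group it was above both other libraries for 48 of 50 genes (96%), beside 39.2% of all tested genes. Relative to the mean of the other NMO CD11c- libraries its median log2 difference was 1.08 for mitosis genes, 0.82 for replication genes and 0.0080 for all tested genes, on the log2(CPM + 0.5) scale. The other 2 libraries of the group were nonetheless above the controls for the mitosis sum. The heat map by library shows the column of this library as the darkest one for replication and mitosis genes alike.

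**Figure D3:**
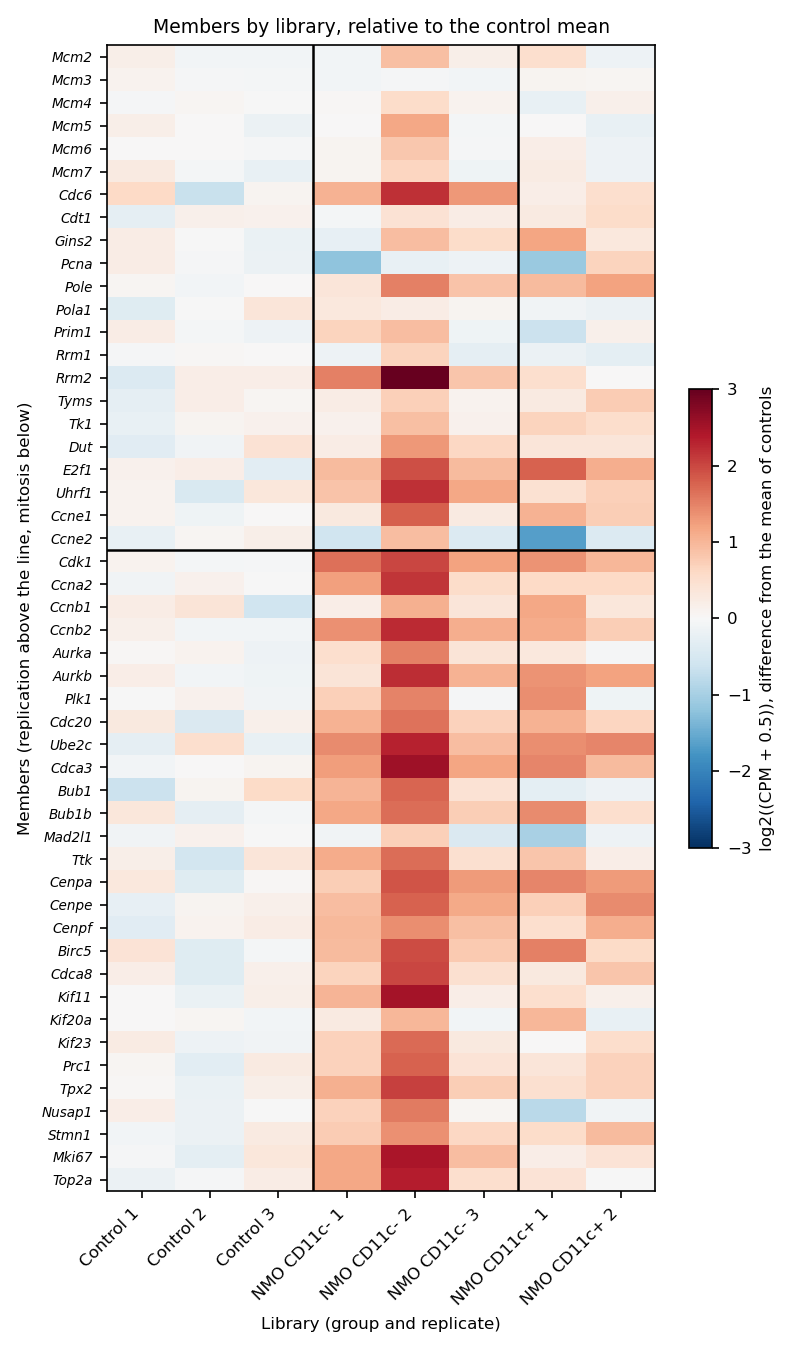
Each row is 1 of the 50 genes (replication above the line, mitosis below), each column a library, and the colour is log2(CPM + 0.5) minus the mean of the controls (red higher, blue lower). NMO CD11c- replicate 2 is the highest library for 43 of 50 genes.

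The first comparison asked how CD11c- microglia of NMO mice differed from control microglia. At a Benjamini-Hochberg adjusted p under 0.05 in edgeR's quasi-likelihood test, 9 of the 50 genes were higher and 0 lower, beside 3% of all tested genes called higher and 0.717% called lower (3.72% in either direction). They were 8 of the 28 mitosis genes (Mki67, Cdk1, Ccnb2, Cdca3, Tpx2, Cenpa, Cenpe and Cenpf) and 1 of the 22 replication genes (E2f1). The median log2 fold change was 1.42 over the mitosis genes, 0.42 over the replication genes and -0.0040 over all tested genes. All 3 NMO CD11c- libraries were above all 3 controls for 28 of the 50 genes (22 mitosis, 6 replication) and below them for 0, beside 17.6% and 16.1% of all tested genes. At an unadjusted p under 0.05 there were 31 higher (24 mitosis, 7 replication) and 0 lower, beside 11.7% and 7.02% of all tested genes. The count of calls moved with single libraries. Without NMO CD11c- replicate 2 it was 3 (Cdk1, Ccnb2 and Mki67), with medians of 1.04 for mitosis and 0.12 for replication genes, and without any 1 of the control libraries it was 1 (Cdk1). With only the groups compared, without the spread of the NMO CD11c+ libraries, the member count was 16. Leaving out both libraries that stood apart gave medians of 1.04 for mitosis and 0.12 for replication genes. The count of all tested genes called higher moved too. It was 360 in the main fit and 803 with only the groups compared. It was 158 without NMO CD11c- replicate 2 and 123 to 147 without 1 control library.

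All 28 mitosis genes had positive log2 fold changes, and the counts by subgroup that follow are of genes called higher, beside 3% of all tested genes. Among the kinases, cyclins and ubiquitin ligase genes, 3 of 10 were called higher. Cdk1 (chr10:69335146-69352938, GRCm38), whose promoter is shown above, was at 3.06, 2.68 and 2.75 CPM in controls and at 10.0, 12.8 and 7.2 CPM in NMO CD11c-. Each of the 3 was above the highest control, and the log2 fold change was 1.82 (SE 0.26, adjusted p = 0.0040). Ccnb2 (chr9:70407692-70421547) was at 2.08, 1.71 and 1.70 CPM in controls and at 5.54, 10.4 and 4.41 CPM in NMO CD11c-. The groups did not overlap, and the log2 fold change was 1.88 (SE 0.36, adjusted p = 0.019). A pseudogene copy, Ccnb2-ps, is annotated for it. Cdca3 (chr6:124829547-124833701), which triggers entry into mitosis by way of Wee1 breakdown, was at 1.47, 1.61 and 1.70 CPM in controls and at 4.49, 11.6 and 4.26 CPM in NMO CD11c-. Its replicate 2 value was more than that of the other 2 together, and the log2 fold change was 2.08 (SE 0.43, adjusted p = 0.027). The remaining 7 had positive log2 fold changes that did not pass the test. The largest was that of Ube2c, the E2 enzyme that works with the anaphase-promoting complex, with 0.489, 1.18 and 0.523 CPM in controls and 2.69, 5.42 and 1.76 CPM in NMO CD11c- (log2 fold change 2.11, SE 0.51, adjusted p = 0.052). The lowest of the 10 was that of Ccnb1, 0.86.

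Of the 5 centromere and passenger genes 3 were called higher, and for all 5 each NMO CD11c- library was above each control. Cenpa (chr5:30666777-30674830), the histone H3 variant that marks centromeres, was at 3.91, 2.25 and 3.14 CPM in controls and at 5.39, 12.6 and 8.08 CPM in NMO CD11c- (log2 fold change 1.49, SE 0.33, adjusted p = 0.036). Cenpe (chr3:135212537-135273611), a kinetochore motor, was at 2.20, 2.89 and 3.01 CPM in controls and at 5.54, 10.4 and 6.47 CPM in NMO CD11c- (log2 fold change 1.46, SE 0.31, adjusted p = 0.033). Cenpf (chr1:189640606-189688086), a kinetochore protein of G2 and M phase, was at 2.81, 4.07 and 4.45 CPM in controls and at 7.78, 10.5 and 7.35 CPM in NMO CD11c- (log2 fold change 1.18, SE 0.26, adjusted p = 0.037). For all 3 genes each NMO CD11c- library was above each control, and replicate 2 was the highest. Birc5 (survivin) and Cdca8 (borealin), which guide Aurora B, did not pass the test, at log2 fold changes of 1.59 and 1.39.

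Of the 7 spindle and microtubule genes 1 was called higher. Tpx2 (chr2:152847964-152895321), which activates Aurora A on the spindle, was at 2.57, 2.14 and 2.88 CPM in controls and at 5.84, 12.0 and 4.56 CPM in NMO CD11c- (log2 fold change 1.56, SE 0.37, adjusted p = 0.047). The groups did not overlap. The other 6 (Kif11, Kif20a, Kif23, Prc1, Nusap1 and Stmn1) had log2 fold changes between 0.53 and 1.67. Stmn1, which destabilises microtubules, was low throughout, with 0.611, 0.536 and 0.915 CPM in controls and 1.5, 2.56 and 1.32 CPM in NMO CD11c-. Of the 4 spindle checkpoint genes (Bub1, Bub1b, Mad2l1 and Ttk) 0 were called, with a median log2 fold change of 1.31.

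Of the 2 genes of chromosome structure, Mki67 was called higher. Mki67 (chr7:135689784-135716361) was at 16.1, 13.4 and 21.3 CPM in controls and at 37.9, 92.6 and 32 CPM in NMO CD11c-. The lowest NMO CD11c- library was above the highest control, and the log2 fold change was 1.68 (SE 0.36, adjusted p = 0.034). Top2a, the topoisomerase that untangles sister chromatids, was at 8.68, 9.75 and 11.6 CPM in controls and at 22.9, 52.7 and 14.4 CPM in NMO CD11c-. Its groups did not overlap either, but the log2 fold change of 1.58 (SE 0.40) missed the threshold at an adjusted p of 0.061.

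Among replication genes, E2f1 was the one call. E2f1 (chr2:154559407-154569892), the transcription factor that switches on S phase genes, was at 3.79, 3.96 and 2.62 CPM in controls and at 7.03, 14.5 and 7.05 CPM in NMO CD11c- (log2 fold change 1.45, SE 0.34, adjusted p = 0.048). Its group of 4 regulators of S phase entry also held Uhrf1, which carries methylation marks to new DNA, at 2.94, 1.82 and 3.53 CPM in controls and 5.24, 14.0 and 6.61 CPM in NMO CD11c-, with no overlap and a log2 fold change of 1.65 whose adjusted p of 0.0501 missed the threshold. Ccne1 and Ccne2, the E cyclins, had log2 fold changes of 1.43 and 0.14.

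The helicase and its loaders, 9 genes, gave 0 calls and a median log2 fold change of 0.34. Mcm3 was the flattest of all, at 61.5, 55.4 and 54.8 CPM in controls and 53.6, 55.7 and 54.2 CPM in NMO CD11c-, with a log2 fold change of -0.070 and a 95% interval of -0.27 to 0.13. Mcm5 was at 15.5, 13.9 and 12.2 CPM in controls and at 13.9, 31.5 and 13.2 CPM in NMO CD11c-. Only replicate 2 was above the controls, and the log2 fold change of 0.49 became -0.032 without it. For Mcm2, Mcm4, Mcm6 and Mcm7 replicate 2 was likewise the highest library, with log2 fold changes of 0.22 to 0.41, and that of Mcm7 became -0.038 without it. Another NMO CD11c- library was also above every control for Mcm2, Mcm4 and Mcm6. Their levels in NMO CD11c- replicates 1 to 3 were 11.7, 23.6 and 14.0 CPM for Mcm2, 15.7, 22.6 and 16.6 for Mcm4, 20.9, 35.2 and 19.5 for Mcm6 and 17.5, 26.0 and 15.1 for Mcm7. Their controls ranged over 11.6 to 13.9, 15.0 to 16.0, 19.4 to 20.2 and 14.3 to 20.1 CPM in the same order. Cdc6 was at 0.978, 0.107 and 0.523 CPM in controls and 1.5, 3.91 and 1.91 CPM in NMO CD11c-. That is 13 counts in all 3 controls, and the log2 fold change of 2.19 (SE 0.61) did not pass (adjusted p = 0.084).

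The clamp and polymerase genes gave 0 calls of 4, and the nucleotide supply genes 0 of 5. Pcna was at 75.7, 63.3 and 57.9 CPM in controls and at 28, 55.6 and 58.5 CPM in NMO CD11c- (log2 fold change -0.47, SE 0.38, adjusted p = 0.56), and it has 2 annotated pseudogene copies. NMO CD11c- replicate 1 alone was far below the controls. Rrm2, the S phase subunit of ribonucleotide reductase, was at 1.71, 2.89 and 2.88 CPM in controls and at 7.93, 26.0 and 4.70 CPM in NMO CD11c-. It had the largest log2 fold change of the 50 genes (2.36, SE 0.58) with an adjusted p of 0.053. Its partner Rrm1, which is made through more of the cell cycle, was at 23.7, 25.0 and 24.6 CPM in controls and 22.0, 39.0 and 20.1 CPM in NMO CD11c- (log2 fold change 0.15), and only replicate 2 was above the controls.

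**Figure D4:**
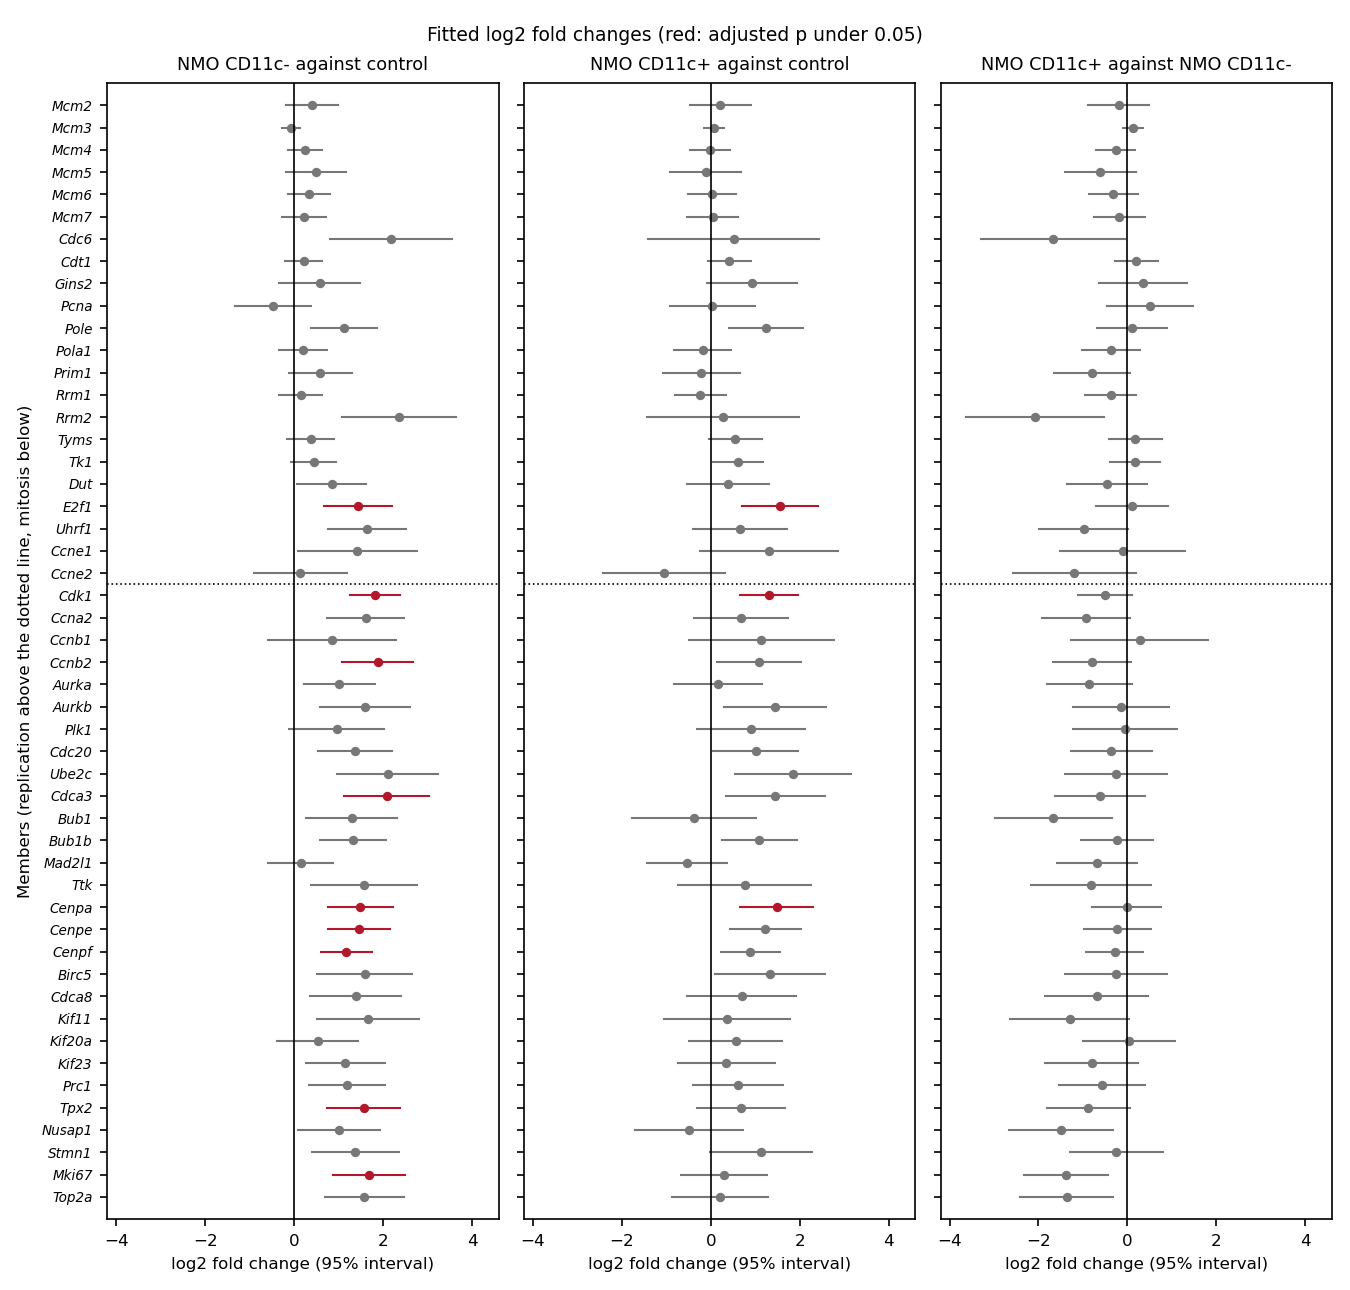
Fitted log2 fold change of each of the 50 genes with its 95% interval in the 3 comparisons (horizontal axes; replication above the dotted line, mitosis below; red marks an adjusted p under 0.05). The panel of NMO CD11c- against control holds 9 red points, the middle panel 3 and the panel that compares the NMO subsets 0.

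The second comparison set NMO CD11c+ microglia against the same 3 control libraries, so it is not independent of the first. Of the 50 genes 3 were called higher (Cdk1, Cenpa and E2f1) and 0 lower, beside 6.85% of all tested genes called higher and 3.36% lower (10.2% in either direction). At an unadjusted p under 0.05 there were 14 higher and 0 lower, beside 15.6% and 13.2% of all tested genes. The share called is near that of all tested genes and is not a result about the list. Both NMO CD11c+ libraries were above all 3 controls for 24 of 50 genes (16 mitosis, 8 replication) and below them for 3 (Mad2l1, Rrm1 and Ccne2), beside 22.2% and 21.5% of all tested genes. The median log2 fold change was 0.83 over mitosis genes, 0.25 over replication genes and 0.0061 over all tested genes. Without NMO CD11c+ replicate 1, the library with the GC departure, the medians were 0.69 for mitosis and 0.26 for replication genes. Without replicate 2, which leaves the group with replicate 1 alone, they were 0.81 and 0.25. Without both libraries that stood apart they were 0.72 and 0.16. Each of these fits holds 1 NMO CD11c+ library, so their calls are not read here. Without any 1 control library 0 members were called, and 385 to 414 of all tested genes were called higher (822 in the main fit). Leaving out NMO CD11c- replicate 2 gave 9.

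Cdk1 was at 7.97 and 6.17 CPM in NMO CD11c+, above the 2.68 to 3.06 CPM of controls (log2 fold change 1.31, SE 0.29, adjusted p = 0.022). Cenpa was at 9.19 and 8.10 CPM, above the 2.25 to 3.91 CPM of controls (log2 fold change 1.48, SE 0.37, adjusted p = 0.034). E2f1 was at 12.9 and 7.75 CPM, above the 2.62 to 3.96 CPM of controls (log2 fold change 1.55, SE 0.38, adjusted p = 0.032). For these 3 genes no NMO CD11c+ library overlapped a control. The neutrophil and precursor marker sums were at most 15.3 CPM in this group, and the part of other cells in the result was not tested. Ube2c, at 2.66 and 2.82 CPM, had the largest log2 fold change of the list (1.85, SE 0.59) and an adjusted p of 0.071.

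Mki67 and Top2a, the first choices as markers of division, were near the control levels in NMO CD11c+. Mki67 was at 19.2 and 22.2 CPM against 13.4 to 21.3 CPM in controls, with a log2 fold change of 0.30 and a 95% interval of -0.66 to 1.26. Top2a was at 13.5 and 9.87 CPM against 8.68 to 11.6 CPM in controls. Both overlapped the controls. At the low end, Ccne2 was at 0.817 and 2.64 CPM against 3.06 to 4.18 CPM in controls (log2 fold change -1.05, SE 0.62, adjusted p = 0.28), Mad2l1, a checkpoint protein, was at 2.66 and 5.11 CPM against 5.26 to 6.21 CPM (log2 fold change -0.54), and Nusap1, a spindle protein, was at 1.23 and 2.29 CPM against 2.14 to 2.94 CPM (log2 fold change -0.49). None of these passed the test. Pcna was at 29.8 and 104 CPM, on either side of the 57.9 to 75.7 CPM of controls, so its log2 fold change of 0.034 averages a library below the controls and 1 above them. It was -1.14 without replicate 2, where replicate 1 alone stood for the group.

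**Figure D5:**
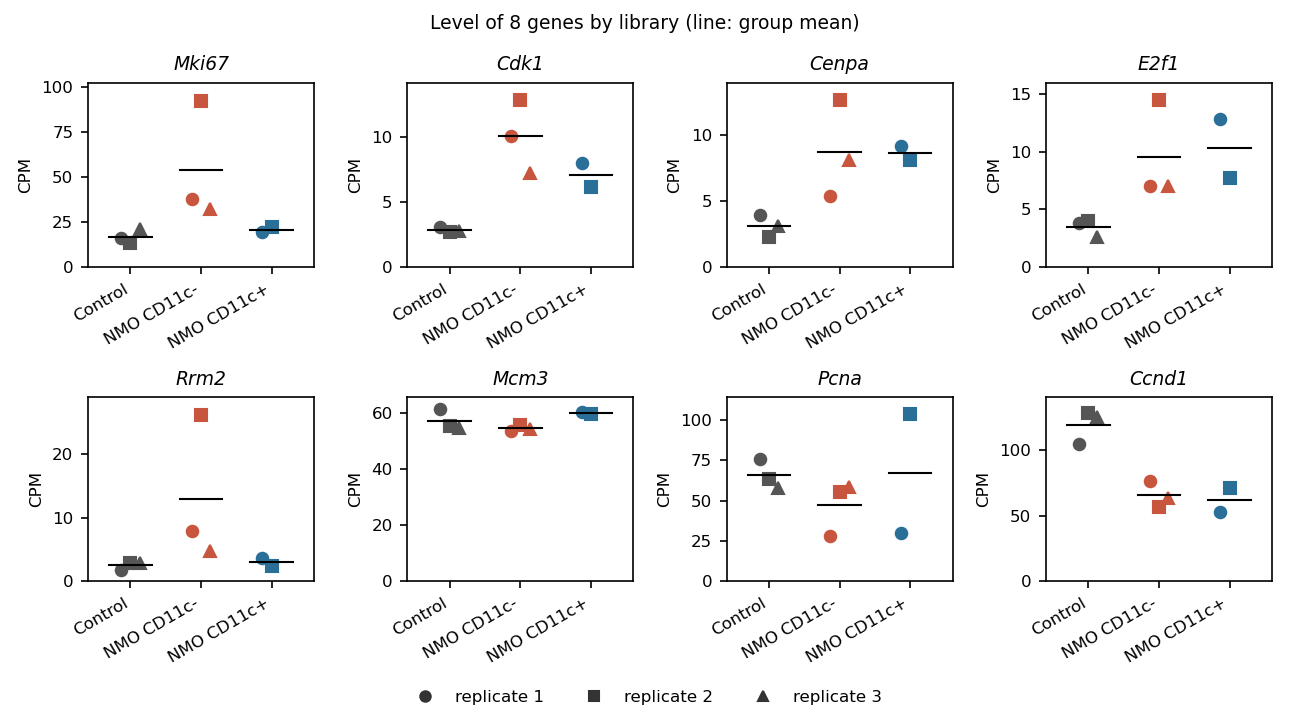
Level in CPM of 8 genes in each library (points; the line is the group mean; each vertical axis starts at 0). Cdk1, Cenpa and E2f1 are above the controls in both NMO groups, Mki67 and Rrm2 are above the controls in NMO CD11c- and near them in NMO CD11c+, Mcm3 is level, Pcna is scattered within the NMO groups, and Ccnd1 is below the controls in both NMO groups.

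The third comparison set the subsets of NMO mice against each other, CD11c+ against CD11c-. Of the 50 genes 0 were called higher and 0 lower in edgeR's quasi-likelihood test, beside 0.1% and 0.183% of all tested genes (0.283% in either direction). At an unadjusted p under 0.05 there were 0 higher and 6 lower (Rrm2, Cdc6, Bub1, Nusap1, Mki67 and Top2a), beside 7.9% and 7.54% of all tested genes. DESeq2 called 2 lower (Mki67 and Rrm2), edgeR's exact test 1 (Mki67), and the fit with no filter on low counts 6. The median log2 fold change was -0.60 over mitosis genes, -0.23 over replication genes and 0.0097 over all tested genes, and -0.10 and 0.0025 over mitosis and replication genes without NMO CD11c- replicate 2. Both NMO CD11c+ libraries were below all 3 NMO CD11c- libraries for 10 genes and above them for 1 (Mcm3), beside 14.2% and 13.8% of all tested genes.

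Mki67 in NMO CD11c+, at 19.2 and 22.2 CPM, was below all NMO CD11c- libraries, at 32 to 92.6 CPM, and the log2 fold change was -1.38 (SE 0.43, adjusted p = 0.20). Rrm2, at 3.68 and 2.47 CPM, was below 4.70 to 26.0 CPM, and the log2 fold change was -2.07 (SE 0.70, adjusted p = 0.23). Bub1, a kinase of the spindle checkpoint, was at 1.23 and 1.41 CPM against 2.35 to 6.62 CPM, and the log2 fold change was -1.67 (SE 0.59, adjusted p = 0.25). These 3 did not overlap between the subsets and did not pass the test. At the other end, Pcna, Gins2 and Ccnb1 had log2 fold changes of 0.51, 0.35 and 0.27, and each changed sign when 1 NMO CD11c+ library was left out. Cdk1, called in both comparisons with controls, differed between subsets by a log2 fold change of -0.51 (95% interval -1.12 to 0.11). Cenpa differed by -0.011 (95% interval -0.79 to 0.77), so a difference either way within that interval is not excluded. Larger differences, such as that of Mki67, did not pass the test with these libraries either. Neutrophil and precursor marker sums and Chil3 were all lower in NMO CD11c+ than in NMO CD11c-, and their part in these differences was not tested.

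Other genes of the same pathways were read from 3 lists, which were drawn up with earlier results of these data known. Of 37 tested further replication genes, Timeless, which protects replication forks, was the 1 called in NMO CD11c- against control and the 1 called in NMO CD11c+ against control. It was at 3.30, 3.21 and 3.01 CPM in controls, 7.18, 7.83 and 6.32 CPM in NMO CD11c- and 8.58 and 6.52 CPM in NMO CD11c+, with log2 fold changes of 1.16 (adjusted p = 0.016) and 1.24 (adjusted p = 0.011). All 5 NMO libraries were above the controls, and replicate 2 of NMO CD11c- did not stand out. In each of the 2 comparisons 1 of 37 is not above the share of all tested genes called higher (3% and 6.85%). The list's median log2 fold change was 0.070 in NMO CD11c-, with 14 of 37 genes negative, and -0.051 in NMO CD11c+, with 21 negative. Of 38 tested further mitosis genes, 3 rose in NMO CD11c-: Kif2c, a depolymeriser of microtubules at centromeres, Ckap2, a spindle protein, and Knl1, a scaffold of the kinetochore, with log2 fold changes of 1.80, 1.94 and 1.80. Kif2c also rose in NMO CD11c+ (1.99, adjusted p = 0.00905), from 1.57 to 2.03 CPM in controls to 8.17 and 5.81 CPM. The background of calls is again 3% in NMO CD11c- and 6.85% in NMO CD11c+, and 1 of 38 is below the latter. The list's median log2 fold change was 1.03 in NMO CD11c- and 0.31 in NMO CD11c+. In both lists 0 genes were called lower, and 0 were called between the subsets.

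Of 33 tested regulators of the G1 phase, Ccnd1 fell in both comparisons with controls. Ccnd1, which encodes cyclin D1, was at 105, 129 and 125 CPM in controls, 76.5, 56.8 and 63.6 CPM in NMO CD11c- and 52.5 and 71.3 CPM in NMO CD11c+. Every NMO library was below every control, with log2 fold changes of -0.86 (SE 0.15, adjusted p = 0.012) and -0.95 (SE 0.17, adjusted p = 0.0084). Cdkn2c, an inhibitor of the cyclin D kinases, rose in NMO CD11c- (log2 fold change 1.2, adjusted p = 0.037), at 7.48, 11.7 and 9.55 CPM against 4.04 to 4.39 CPM. Cdkn1a, the inhibitor p21, rose in NMO CD11c+ (log2 fold change 1.55, adjusted p = 0.037), at 57.8 and 138 CPM against 27.3 to 42.1 CPM in controls, and its level in NMO CD11c- of 24.4 to 64.2 CPM overlapped both groups. These counts, 1 of 33 in each direction in each comparison, stand beside 3% of all tested genes called higher and 0.717% lower in NMO CD11c- and 6.85% and 3.36% in NMO CD11c+, and are no result about the list, whose median log2 fold changes were 0.060 and 0.032. No regulator of this list was called between the subsets, where the log2 fold change of Cdkn1a was 1.2 (adjusted p = 0.22).

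Some of the members share exon sequence with a coding gene on the other strand (Mcm7, Gins2, Tk1, Ccne2, Ccna2, Cdc20, Ube2c, Cdca8, Kif20a, Prc1 and Nusap1), and because the sources used here do not give the strand setting of the counting, their counts may hold reads of the neighbour. Pcna, Tyms, Ccnb1, Ccnb2 and Stmn1 have copies in the annotation that carry their names, and their counts are uncertain for that reason. The likeness of these copies was not measured, and copies under other names were not searched for. Pole and Plk1 overlap a gene annotated as antisense or unclassified. Of the 9 genes called in the first comparison, Ccnb2 is the only one among these.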

How the data were processed

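The deposited files hold raw read counts per Ensembl gene, 1 file per library. Per the submitters' processing notes, STAR 2.3.11, GRCm38, HTSeq 0.5.4 and edgeR 3.12.0 were used by the authors; the sources used here do not give the strand setting or annotation release. Values are whole numbers, and 0 columns of per-sample values were left unused. Symbols, coordinates and exon lengths came from GENCODE M21 (GRCm38); 40254 of 41388 identifiers matched a symbol.

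In R 4.3.3, edgeR 4.0.16 tested the 12002 genes that passed filterByExpr (minimum count 10), after TMM scaling, in 1 quasi-likelihood fit over all 8 libraries (residual degrees of freedom 5, prior 5.08, common dispersion 0.0223). Calls are genes whose p, adjusted over all tested genes by Benjamini-Hochberg, is under 0.05. The SE is the log2 fold change divided by the root of its F statistic, and intervals are 95%. Groups are as labelled, with no batch term. CPM are counts scaled to the TMM-adjusted library size over tested genes, and levels per kb divide by the summed length of merged exons. The self-test on simulated counts recovered planted changes. Alternatives covered scaling, filters, DESeq2 1.42.0, edgeR's exact test, fits on fewer libraries, and a GC and length correction. Gene lists were described by counts and medians, without a list test.

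Members and lists were chosen with earlier results of these data known. Values per library are given for called genes, for the 3 largest and 3 smallest log2 fold changes per comparison and for Mki67, Top2a, Cdk1, Pcna, Mcm2 to Mcm7, Rrm1, Rrm2 and Stmn1, and Uhrf1 was added after its values were seen. Marker lists covered microglia, neutrophils and their precursors, monocytes, T cells, B cells, erythroid cells, oligodendrocyte precursors, endothelial cells and astrocytes. The summed levels of the microglia and monocyte lists are not reported here. B cell markers (2 of 5 tested) summed to 385 to 488 CPM over all groups, endothelial markers (3 of 4) to 51.2 to 63.0 CPM in controls and 25.4 to 35.1 in both NMO groups, and astrocyte markers (2 of 4) to 2.04 to 7.98 CPM.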

Additional observations from a re-analysis of the deposited data

How the results depend on the processing

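No paired analysis was possible because the replicates were numbered by accession and no label ties a library of 1 group to a library of another. Depth limits the members: at a minimum count of 30 only 36 of 50 were tested. Scaling by RLE, upper quartile or library size moved no count of called members or genes by over 1.5 times and no summed CPM by more than the spread between libraries.

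For members, the 9 higher in NMO CD11c- against control became 26 without the low-count filter, 17 with DESeq2, 21 with edgeR's exact test and 16 with only the groups compared or with the GC and length correction, and 1 to 16 when 1 library was left out. The 3 higher in NMO CD11c+ against control became 9 without the filter, 9 with the exact test, 5 with the GC and length correction and 5 without the 2 libraries that stand apart (an alternative chosen after seeing the data), and 0 to 9 when 1 library was left out, where 0 to 1 were lower. The 0 lower in NMO CD11c+ against NMO CD11c- became 6 without the filter, 2 with DESeq2 and 1 with the exact test.

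Over all tested genes, in the order no filter, DESeq2, exact test, only the groups compared, GC and length correction, and without the 2 libraries that stand apart, the NMO CD11c+ against NMO CD11c- comparison gave 264, 107, 125, 2, 29 and 53 higher (12 as reported; 3 to 1435 with 1 library left out) and 443, 161, 180, 3, 34 and 52 lower (22 as reported; 0 to 1581). NMO CD11c- against control gave 841, 559, 689, 803, 702 and 628 higher (360; 123 to 788) and 316, 137, 192, 418, 224 and 256 lower (86; 18 to 405). NMO CD11c+ against control gave 466 higher with only the groups compared (822; 385 to 2019) and 1083, 628, 707 and 161 lower with no filter, DESeq2, the exact test and only the groups compared (403; 102 to 2058). The highest counts in both NMO CD11c+ comparisons came without NMO CD11c+ replicate 2, which leaves that group with replicate 1 alone, assumed to vary like the other groups.

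Of 742 single-gene values under an alternative, 15 changed sign, and 0 of those genes were called as reported. In NMO CD11c- against control, log2 fold changes ranged, with 1 library left out, from -0.59 to 0.43 for Ccne2, -0.032 to 0.71 for Mcm5, -0.038 to 0.38 for Mcm7 and -0.21 to 0.32 for Rrm1, each lowest without NMO CD11c- replicate 2, and were -0.59, -0.035, -0.040 and -0.21 without the 2 libraries that stand apart. In NMO CD11c+ against NMO CD11c-, Ccnb1 (-0.41 to 0.78) and Gins2 (-0.22 to 0.78) turned without NMO CD11c+ replicate 1 and Pcna (-0.67 to 1.13) without replicate 2. In NMO CD11c+ against control, Pcna was -0.0035 by library size and -0.0026 without the filter, and -1.14 to 0.66 with 1 library left out (-0.048 without control replicate 3). The cause of these changes was not tested.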
